A study of Mus musculus with 8 samples.

Results

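The genes described here are 8 members of the platelet-derived growth factor (PDGF) and Hedgehog pathways, taken by their symbols from the 27775 gene rows of each count table. They are the PDGF ligands Pdgfa and Pdgfb, the PDGF receptors Pdgfra and Pdgfrb, the Hedgehog ligands Shh and Ihh, the Hedgehog receptor Ptch1 and the Hedgehog transcription factor Gli1. All 8 were listed in both tables. The ligands were read in the carcinoma cells, and the receptors and targets in fibroblasts and mesothelial cells that were called from other marker genes.

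Single cells came from 2 pancreatic ductal adenocarcinomas of untreated KPC mice, 1 of medium size and 1 of large size, and the study used the medium size tumor. Both tumors share one genotype, which includes LSL-Trp53R172H/+ and Pdx-1-Cre, so Cre is driven by the Pdx-1 promoter, which is active in the pancreatic lineage. The ages of the mice are not given in the labels. With 1 tumor of each size, whose 4 technical replicates are pooled in 1 table, there is no replicate check, and no P-value was computed.

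PDGF and Hedgehog proteins carry signals between neighbouring cells. PDGF dimers bind the receptor tyrosine kinases PDGFR-alpha and PDGFR-beta, which fibroblasts and pericytes carry. Hedgehog ligands bind Ptch1 and so release Smo, which lets the Gli factors turn on genes that include Ptch1 and Gli1 themselves, and in pancreatic cancer the ligands are known to come from the epithelium and the response from the stroma.

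Expression was measured by counting unique molecular identifiers (UMIs) and is given as CPM, the UMIs of a gene scaled to 1000000 UMIs of a group of cells. The brackets after a value hold the 95% interval, exact Poisson for CPM, exact binomial for a share of cells and exact conditional for a ratio, and all of them cover counting error only. The medium size tumor had 2812 cells and 20301669 UMIs, with a median of 5456.5 per cell, and the large size tumor had 1533 cells and 2239012 UMIs, with a median of 1037 per cell. For a count of 0 the limit of 3 counts applies, and over the whole of each table it equals 0.148 CPM (medium size) and 1.34 CPM (large size). The 2 tables shared 5 barcodes. In the medium size tumor 2330 cells in 8 clusters were epithelial-like, cluster 11 (67 cells) was stromal-like and cluster 10 (74 cells) was mesothelial-like. Cluster 10 held all 7 mesothelial markers and also 7 of 10 fibroblast markers, and it would be unnamed if 60% rather than 75% of another list's markers left a cluster unnamed, a threshold chosen after the marker values had been seen. Called one by one from their own markers, 36 of its 74 cells were mesothelial and 27 were fibroblasts. Cluster 8, which held 5 of 6 mesenchymal-like markers, held only 3 of 11 epithelial markers and is the least certain of the epithelial-like clusters. In the large size tumor 1219 cells were epithelial-like and 50 were stromal-like, and no cluster was mesothelial-like.

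Promoter sequences from RefSeq (GRCm38.p6, 250 bases before to 50 bases after the start) were matched for 4 members, Ihh, Pdgfa, Ptch1 and Pdgfra. The Ptch1, Ihh and Pdgfra windows are shown because Ptch1 is the Hedgehog response gene and Ihh is the Hedgehog ligand with the most UMIs in the medium size tumor. Pdgfra is a receptor that, like Pdgfrb, was nearly absent from the epithelial-like cells. Capitals mark the GC box GGGCGG on either strand. The windows are chr13:63565686-63565985 on the minus strand for Ptch1, chr1:74951623-74951922 on the minus strand for Ihh and chr5:75152001-75152300 on the plus strand for Pdgfra.
Ptch1: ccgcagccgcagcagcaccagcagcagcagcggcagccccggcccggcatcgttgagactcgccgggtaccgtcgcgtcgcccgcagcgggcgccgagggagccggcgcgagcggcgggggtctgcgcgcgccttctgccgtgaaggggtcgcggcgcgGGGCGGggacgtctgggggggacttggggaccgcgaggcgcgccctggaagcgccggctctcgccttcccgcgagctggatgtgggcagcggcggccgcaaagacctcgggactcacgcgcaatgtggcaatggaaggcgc
Ihh: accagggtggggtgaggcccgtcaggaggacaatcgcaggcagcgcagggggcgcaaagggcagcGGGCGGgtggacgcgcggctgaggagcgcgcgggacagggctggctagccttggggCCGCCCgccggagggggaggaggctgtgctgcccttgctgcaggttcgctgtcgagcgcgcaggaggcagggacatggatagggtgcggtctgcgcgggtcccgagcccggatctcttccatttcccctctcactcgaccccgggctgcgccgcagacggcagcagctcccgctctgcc
Pdgfra: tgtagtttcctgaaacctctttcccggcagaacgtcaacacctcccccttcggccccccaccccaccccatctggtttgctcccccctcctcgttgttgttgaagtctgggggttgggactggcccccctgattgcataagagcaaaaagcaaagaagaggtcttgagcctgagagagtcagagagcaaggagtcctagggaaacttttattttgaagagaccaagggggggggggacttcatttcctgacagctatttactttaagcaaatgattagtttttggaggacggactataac

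The GC box was found in 4 of 5 windows of the members (Pdgfa has 2 start sites), compared with 35.7% of 32851 promoters of the same length. The Pdgfra window held none, and its GC content of 51.0% and 5 CpG sites stand beside 76.3% and 47 CpG sites for Ptch1 and 72.7% and 30 for Ihh. The GLI motif GACCACCCA was found on neither strand of the 5 windows, and 0.253% of all promoters held it. Pdgfrb, Pdgfb, Shh and Gli1 had no window in the table used.

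Pdgfa, which encodes the A chain of PDGF, was found in every class of cells of the medium size tumor. It had 2231 UMIs and was at 112 CPM (107 to 117) in the epithelial-like cells, 120 CPM (86.1 to 164) in the stromal-like cells, 69.0 CPM (45.4 to 100) in the mesothelial-like cells and 181 CPM (131 to 243) in the endothelial-like cells. The ratio of epithelial-like cells to all others was 1.17 (1.01 to 1.35), 1.05 (0.910 to 1.21) with TMM scaling and 1.56 (1.29 to 1.91) among cells whose own marker call was that of their cluster. The interval with TMM scaling holds 1, and the stromal-like and endothelial-like cluster levels were not below the epithelial-like one. A few cells weigh on these cluster levels. The 6 cells called smooth muscle and pericyte one by one held 24 Pdgfa UMIs, at 880 CPM (564 to 1310). Of these cells, 5 lay in the stromal-like and 1 in the endothelial-like cluster, and the ratio of 1.56 leaves them out. The other 62 stromal-like cells held Pdgfa at 80.6 CPM (52.2 to 119). Called one by one, the 2313 epithelial cells held Pdgfa at 113 CPM (108 to 118), the 79 fibroblasts at 67.2 CPM (43.0 to 99.95) and the 296 macrophages at 79.5 CPM (64.9 to 96.5). Macrophage-like cells held Pdgfa at 70.6 CPM, which is 63.2% of the epithelial-like level, while the 11 epithelial markers stood there at a median of 6.46% of their epithelial-like level (range 4.96% to 10.7%). In the endothelial-like cluster those markers stood at a median of 40.4%, and the 26 cells called endothelial one by one held Pdgfa at 87.8 CPM (46.8 to 150).

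Within the carcinoma the level of Pdgfa followed the cell state. Cluster 6, led by Krt17, Tnc and Fn1, was highest at 204 CPM (183 to 226), and cluster 7, led by Dmbt1 and Sftpd, was next at 155 CPM (135 to 178). Cluster 1, led by gastrokines Gkn1 and Gkn3 of the gastric pit, was at 140 CPM (126 to 154), within counting error of cluster 7. Cluster 3, led by the mitotic genes Ube2c, Birc5 and Top2a, was lowest at 46.2 CPM (39.3 to 53.9), with no overlap of its interval with that of any other epithelial-like cluster.

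Pdgfb, which encodes the B chain and can form dimers that bind either PDGF receptor, was concentrated in a single carcinoma state. Cluster 6 held 192 of its 418 UMIs, 45.9%, in 8.36% of the cells, at 109 CPM (93.8 to 125). In cluster 6, 39.6% of the cells had a Pdgfb UMI, against 5.59% in cluster 1 with almost the same median depth (5374 and 5370 UMIs). With each cell thinned to 2500 UMIs the shares were 19.6% and 1.34%. Of the macrophage-like cells (median depth 3516 UMIs) 3.78% had a Pdgfb UMI before thinning. The other epithelial-like clusters held between 8.63 CPM in cluster 1 and 17.5 CPM in cluster 8. The ratio of cluster 6 to the other epithelial-like cells was 8.91 (7.27 to 10.9), and Pdgfb was the only member of the 6 with at least 20 UMIs that was 2-fold higher there, where 3.99% of 12681 genes were 2-fold higher. Outside the epithelium the endothelial-like cells were highest at 37.0 CPM (16.9 to 70.2), with 9 UMIs. Stromal-like cells had 2 UMIs and macrophage-like cells 9, at 9.78 CPM. Pdgfb and the other listed pathway genes were kept out of the variable genes used to make the clusters, so its level did not help to define cluster 6.

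The 2-fold calls of the members against the other epithelial-like cells, with 5 CPM added to both values, were few in every carcinoma state. Cluster 3 held Pdgfa and Pdgfb 2-fold lower, as were 2.28% of genes, and no member higher, as were 2.39%. Cluster 2 held Ihh lower, as were 2.14% of genes, and no member higher, as were 0.237%. Cluster 8 held Ihh lower, as were 5.09% of genes, and no member higher, as were 3.74%. No member was 2-fold lower in cluster 6, where 3.3% of genes were. In cluster 4 (2.79% of genes higher and 3.92% lower), cluster 5 (0.647% and 3.74%) and cluster 7 (5.39% and 4.95%) no member passed the fold in either direction.

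Pdgfa and Pdgfb were detected together in 174 of 2330 epithelial-like cells, against 128 expected from the product of their shares. In cluster 6 both were seen in 78 of 235 cells, against 59.4 from the product. Clusters 1, 2, 7 and 8 also held more such cells than the product gives, and clusters 3, 4 and 5 held fewer, with 9 against 9.37, 4 against 4.41 and 16 against 17.7. Cells with more UMIs show more of both genes, and the part of depth in these counts was not tested.

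**Figure D1:**
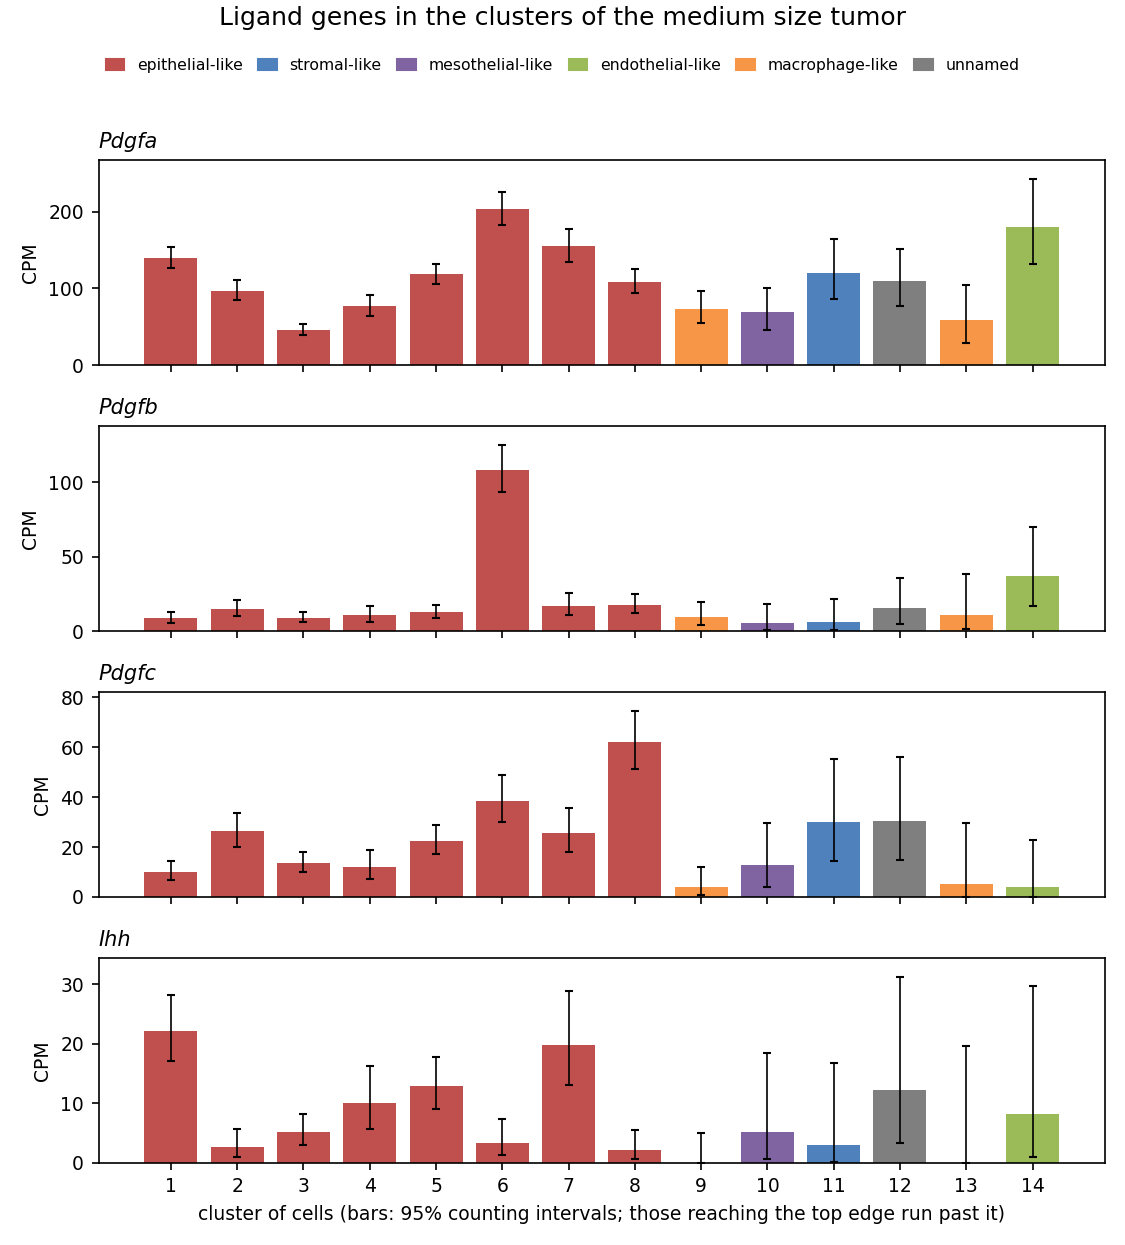
CPM of Pdgfa, Pdgfb, Pdgfc and Ihh (vertical axes) in the 14 clusters of the medium size tumor, coloured by class, with 95% counting intervals. Pdgfb stands out in cluster 6 at 109 CPM, Pdgfc in cluster 8 at 62.2 CPM and Ihh in clusters 1 and 7, and Pdgfa is lowest of the epithelial-like clusters in cluster 3.

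Pdgfc and Pdgfd were highest in other clusters than Pdgfb. Pdgfc, whose product must be cut before it binds a receptor, had 468 UMIs and was highest in cluster 8, led by Inhba and Bmp2, at 62.2 CPM (51.4 to 74.6). That is 3.14 times (2.52 to 3.89) the other epithelial-like cells, while cluster 6 followed at 38.5 CPM (29.9 to 48.8). Pdgfd, of the same subfamily, was highest of the epithelial-like clusters in cluster 7 at 18.3 CPM (11.8 to 27.0) and lowest in cluster 5, with 1 UMI. The place of Pdgfc depended on the clustering. At resolution 1.2 rather than 0.8, 220 of the 228 cells of cluster 8 formed a cluster that held 2 of 11 epithelial markers and was no longer epithelial-like, at 60.2 CPM (49.4 to 72.7). The highest epithelial-like cluster for Pdgfc was then a group of 121 cells, all from cluster 6, at 49.1 CPM (35.8 to 65.7), and the same 121 cells were also highest for Pdgfb, at 152 CPM (127 to 179).

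Ihh, 1 of the 3 Hedgehog ligands, was low but clearly unequal among the carcinoma states. Of its 186 UMIs, 177 were in epithelial-like cells, at 9.79 CPM (8.40 to 11.3), and macrophage-like cells held 0. Cluster 1 was highest at 22.1 CPM (17.0 to 28.2) and cluster 7 was next at 19.8 CPM (13.0 to 28.8), and these do not differ beyond counting error. Clusters 2, 6 and 8 held 2.62, 3.39 and 2.13 CPM, and their intervals lay below that of cluster 1. Cluster 1 was at 2.97 times (2.15 to 4.07) the other epithelial-like cells, in a comparison where 1.37% of genes were 2-fold higher, and Pdgfb was 2-fold lower there, as were 2.25% of genes. At resolution 0.4 the cells of cluster 1 fell into a cluster of 786 cells at 13.2 CPM (10.3 to 16.7), and the highest was one of 524 cells, 285 of them from cluster 4, at 14.8 CPM (10.8 to 19.9), or 1.68 times (1.17 to 2.38) the other epithelial-like cells. Cluster 6, with 233 of its 235 cells kept together, held Ihh at 3.42 CPM (1.26 to 7.45) in that clustering.

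Shh, the Hedgehog ligand best known from development, had 13 UMIs in the medium size tumor, all in epithelial-like cells, at 0.719 CPM (0.383 to 1.23). Those cells held 89.1% of all UMIs, and the 0 Shh UMIs of the other cells allow up to 1.35 CPM. Cluster 1 held 6 Shh UMIs in 6 cells, and cluster 4, led by Tff3, Ly6d and Reg genes, held 4 in 2 cells. Clusters 2, 6, 7 and 8 held 0. Shh and Ihh were seen together in 2 of the 11 cells with a Shh UMI, against 0.689 from the product of their shares. Dhh, the third ligand, had 82 UMIs and was highest of the epithelial-like clusters in cluster 8 at 9.57 CPM (5.67 to 15.1), where Ihh was lowest.

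The PDGF receptors were in the stroma. Pdgfra, which binds all PDGF chains except those of the D type and marks many fibroblasts, had 26 UMIs in the medium size tumor, of which 15 in 11 cells were stromal-like, at 45.2 CPM (25.3 to 74.5), and 7 in 4 cells were mesothelial-like, at 17.9 CPM (7.19 to 36.8). Epithelial-like cells held 3 UMIs, at 0.166 CPM (0.0342 to 0.485). The ratio of stromal-like to epithelial-like cells was 272 (77.1 to 1468). Of the 4 positive cells of the mesothelial-like cluster, 3 were called fibroblasts by their own markers, and 1 of them held 4 UMIs. The 36 cells called mesothelial one by one held 1 UMI, a ratio to the 2313 cells called epithelial one by one of 28.7 (0.547 to 358).

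Pdgfrb, the receptor of the B chain that pericytes and activated fibroblasts carry, had 43 of its 58 UMIs in 26 of the 67 stromal-like cells, at 130 CPM (93.7 to 174). The mesothelial-like cells held 5 UMIs, at 12.8 CPM (4.15 to 29.8), and the epithelial-like cells 7, at 0.387 CPM (0.156 to 0.797). The share of cells with a UMI was 38.8% (27.1% to 51.5%) in stromal-like cells and 0.300% in epithelial-like cells, although the latter were deeper, with medians of 4361 and 5978.5 UMIs. Stromal-like cells stood at 335 times (149 to 882) the epithelial-like level and at 10.1 times (4.03 to 32.8) the mesothelial-like level, and for Pdgfra the last ratio was 2.53 (0.970 to 7.33). The order of these 2 ratios turned with the class called cell by cell, where 79 fibroblasts stood at 4.07 times (1.21 to 21.3) the level of 36 mesothelial cells for Pdgfrb and at 11.0 times (1.75 to 459) for Pdgfra, so no difference between the receptors can be read from them. With the class called cell by cell the stromal to epithelial ratio of Pdgfrb was 95.6 (44.1 to 219), and without the cells rich in pericyte markers described next it was 208 (87.6 to 571). Of the 6 members with at least 20 UMIs, Pdgfra and Pdgfrb were 2-fold higher in stromal-like than in epithelial-like cells with 5 CPM added to each, as were 10.2% of genes, and Pdgfb was 2-fold lower, as were 12.6%.

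**Figure D2:**
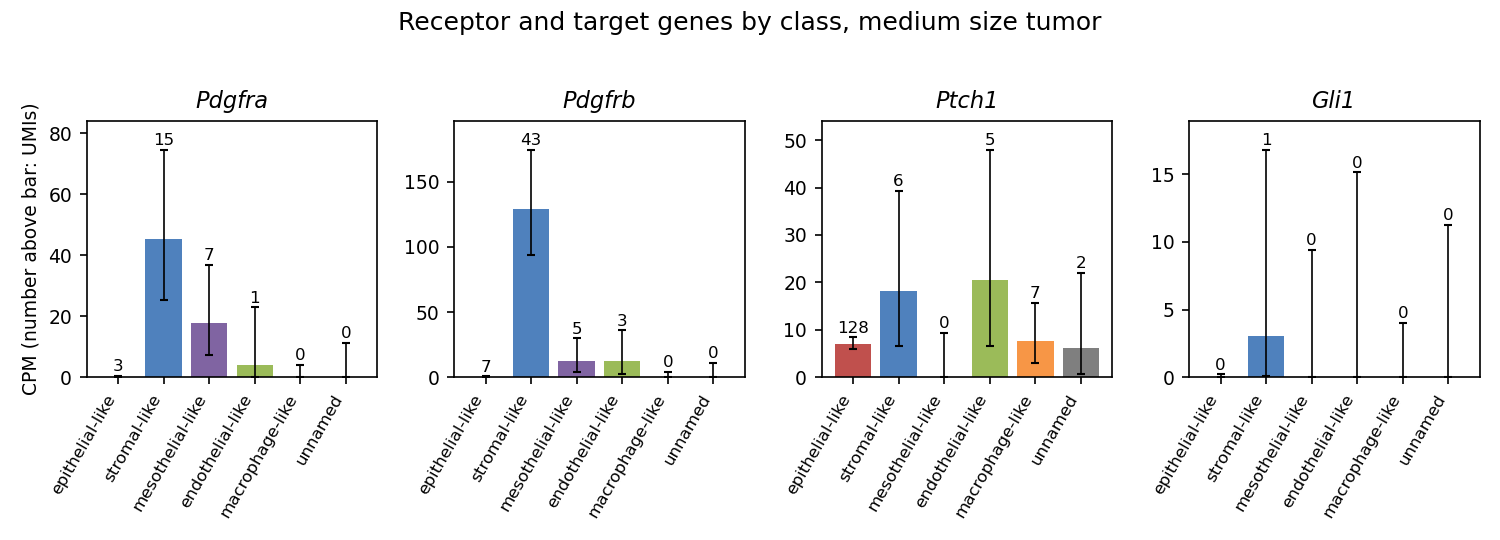
CPM of Pdgfra, Pdgfrb, Ptch1 and Gli1 (vertical axes) by class in the medium size tumor, with 95% counting intervals and the UMI count above each bar. The receptors stand in the stromal-like cells, Ptch1 lies between 6.10 CPM in unnamed and 20.5 CPM in endothelial-like cells with no UMI in mesothelial-like cells, and Gli1 has a single UMI.

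Among the stromal-like cells, Pdgfrb was unevenly shared. A total of 5 cells carried 6 to 8 of the 9 pericyte and smooth muscle markers, against at most 4 in the other 62, a split that was chosen after the marker counts had been seen. These 5 cells held 18 of the 43 Pdgfrb UMIs, at 819 CPM (486 to 1295), with at least 1 in every cell. They held 0 Pdgfra UMIs, with an interval of 0 to 168 CPM that includes the level of the other 62 cells. They also held 15 of the 40 Pdgfa UMIs of the stromal-like cluster, in 4 cells, at 683 CPM (382 to 1126). The other 62 cells held Pdgfrb at 80.6 CPM (52.2 to 119), Pdgfra at 48.4 CPM (27.1 to 79.8) and Pdgfa at 80.6 CPM. Pdgfra and Pdgfrb were seen together in 7 of the 11 Pdgfra-positive cells of the 67, against 4.27 from the product of the shares.

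**Figure D3:**
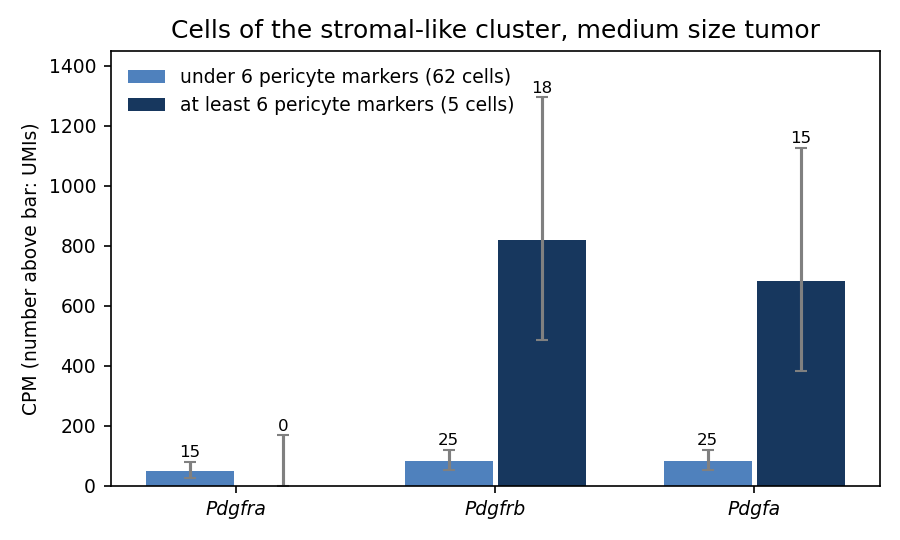
CPM of Pdgfra, Pdgfrb and Pdgfa in the stromal-like cells of the medium size tumor with at least 6 pericyte markers (5 cells) and with fewer (62 cells), with 95% counting intervals and the UMI count above each bar. The 5 cells hold Pdgfrb at 819 CPM and Pdgfa at 683 CPM. They hold no Pdgfra UMI, with an interval of 0 to 168 CPM that includes the level of the 62 cells.

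The Hedgehog response genes were sparse. Gli1, a transcription factor that is itself a target of the pathway, had 1 UMI in the whole medium size tumor and 0 in the large one. The cell that held it was stromal-like, had 9084 UMIs and 7 fibroblast markers, and also held 1 Pdgfra UMI, 1 Pdgfrb UMI and 0 Ptch1 UMIs. The 0 UMIs of the epithelial-like cells allow a level of up to 0.166 CPM, while the stromal-like interval ran from 0.0763 to 16.8 CPM, so a Gli1 level of several CPM in the stromal-like cells lies within counting error of this single UMI.

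Ptch1, the receptor and also a target gene, was spread over the tumor, with 128 of its 148 UMIs in epithelial-like cells, at 7.08 CPM (5.90 to 8.41). Stromal-like cells held 6 UMIs in 6 cells, at 18.1 CPM (6.63 to 39.3), and endothelial-like cells 5, at 20.5 CPM (6.67 to 47.9). Macrophage-like cells held 7, at 7.60 CPM, and their ratio to the epithelial-like cells was 1.07 (0.423 to 2.28). The ratio of stromal-like to epithelial-like cells was 2.55 (0.920 to 5.71), an interval that holds 1. With each cell thinned to 2500 UMIs it was 6.69 (2.01 to 17.7). That value comes from a single random draw, in which 5 stromal-like and 26 epithelial-like cells kept a Ptch1 UMI. Its interval leaves out the error of the draw, so a stromal excess cannot be read from it. The mesothelial-like cells held 0 UMIs in 74 cells, which allows a level of up to 7.66 CPM, and the exact interval of the stromal-like to mesothelial-like ratio had a lower limit of 1.39. Called one by one, the 79 fibroblasts held 5 UMIs, at 14.0 CPM (4.54 to 32.7). The 36 mesothelial cells held 0, with an interval of 0 to 17.8 CPM, so with these calls the intervals overlap. Clusters 5, led by Yap1 and Birc2, and 8 were the highest of the carcinoma states at 11.0 and 10.6 CPM, and cluster 4 was lowest at 2.51 CPM (0.684 to 6.43).

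The other genes of the 2 pathways were read as lists of 14 PDGF and 26 Hedgehog genes. All 14 PDGF genes and 13 of the Hedgehog genes had at least 20 UMIs in the medium size tumor. Of the PDGF list, 4 were 2-fold higher in stromal-like than in epithelial-like cells, Pdgfrl, Plat, Nrp1 and Gab1, and Furin was lower, with a median log2 ratio of 0.45 against -0.15 over all genes, of which 10.2% were higher and 12.6% lower. Of the Hedgehog list, 4 were higher, Gli3, Cdon, Gas1 and Gpc3, and Foxf2 was lower, with a median log2 ratio of 0.44. In the mesothelial-like cells 6 of the 13 Hedgehog genes were higher, Gli3, Disp1, Cdon, Gas1, Evc2 and Gpc3, and none was lower, with a median of 0.99 against -0.19, where 8.34% of genes were higher and 11.9% lower. Only Plat of the PDGF list was higher there. Furin, Foxf2, Gab1, Disp1 and Evc2 were named after their values had been seen.

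Gas1 and Cdon, cell surface proteins that bind Hedgehog ligands beside Ptch1, were at 158 CPM and 25.5 CPM in mesothelial-like cells, at 60.2 CPM and 21.1 CPM in stromal-like cells and at 8.35 CPM and 5.47 CPM in epithelial-like cells. Boc, a related co-receptor, had 19 UMIs, with 8 in mesothelial-like, 8 in epithelial-like and 3 in stromal-like cells. The mesothelial-like cells held no Ptch1 UMI, but the 7.66 CPM that this allows lies above the epithelial-like level of 7.08 CPM. A lack of Ptch1 beside these co-receptor genes is therefore not shown. The co-receptor genes are not given here with the class called cell by cell. Lrp2, a receptor that takes up Hedgehog ligands among others, had 13 of its 16 UMIs in mesothelial-like cells, and Gpc3, a cell surface proteoglycan, was also highest there. Gli3 had 7 UMIs in mesothelial-like, 3 in stromal-like and 15 in epithelial-like cells, and of the 5 UMIs of Gli2 3 were stromal-like, 2 mesothelial-like and 0 epithelial-like. Wif1 had 6 of 7 UMIs in stromal-like cells, Foxf1 3 of 12, and Hhip, a common target gene, was at 0 in all cells.

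Pdgfrl, a gene named for its likeness to the PDGF receptors, was at 181 CPM (138 to 233) in stromal-like cells, 7.66 CPM in mesothelial-like and 4.70 CPM in epithelial-like cells. Nrp1, a co-receptor of several growth factors, was at 190 CPM (146 to 243) in stromal-like, 23.0 CPM in mesothelial-like and 9.57 CPM in epithelial-like cells. Plat, the tissue plasminogen activator that can cut PDGF-CC, was at 500.1 CPM in stromal-like, 296 CPM in mesothelial-like and 65.2 CPM in epithelial-like cells.

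**Figure D4:**
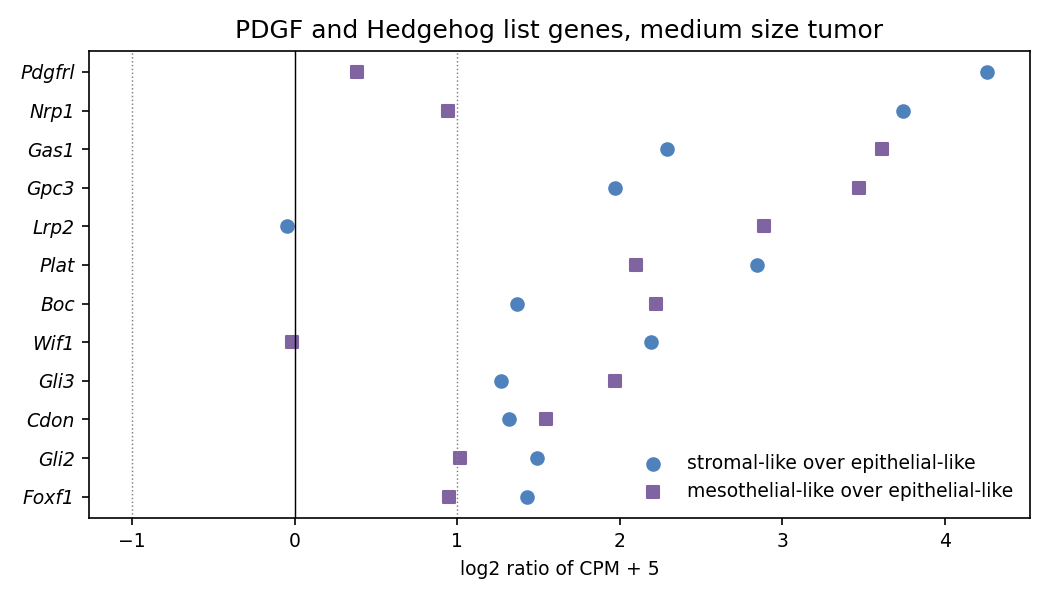
Log2 ratio of CPM with 5 added (horizontal axis) of 12 listed PDGF and Hedgehog genes in stromal-like (circles) and mesothelial-like cells (squares) over epithelial-like cells, medium size tumor; dotted lines mark a fold of 2. Pdgfrl, Nrp1, Wif1 and Plat lie further right in stromal-like cells and Gas1, Gpc3, Lrp2, Boc and Gli3 in mesothelial-like cells.

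The genes whose levels over the 14 clusters were most like those of the members were found by Pearson correlation of log2(CPM + 5), as a description of clusters that share 1 library, for the 5 members with at least 30 UMIs. Pdgfra, Shh and Gli1 were below that. For each member they are the best of 9733 genes searched. For Pdgfrb they were Eln, Thy1 and Des, at 0.99, 0.99 and 0.98. Each of these was highest in cluster 11, as Pdgfrb was, so the values rest largely on that cluster. For Pdgfb the most similar genes were Ltb, Chchd7 and Gadd45a, at 0.83, 0.83 and 0.82, and for Pdgfa they were Mbtd1, Ddit4 and Nedd9, at 0.90, 0.89 and 0.85. For Ihh they were Lrrc26, Duoxa2 and AI661453, at 0.91, 0.90 and 0.89, and for Ptch1 they were Eif2ak1, Zfp719 and Apba3, at 0.90, 0.90 and 0.88. Des is also in the list of pericyte markers.

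In the large size tumor, which was the shallower of the 2 libraries, the ligands again differed between epithelial-like clusters. Pdgfa was highest in cluster 4, which held 6 of 8 enterocyte markers, at 287 CPM (217 to 372). That is 4.40 times (3.14 to 6.10) the other epithelial-like cells, while cluster 6, with 5 of 6 goblet markers, held 77.8 CPM (42.5 to 131), within counting error of clusters 1 and 7. The cycling cluster 5 was lowest of the clusters with over 50 cells at 18.5 CPM (9.26 to 33.2), as the cycling cluster was in the medium size tumor. Pdgfc was highest in cluster 1, which held 4 of 6 mesenchymal-like markers, at 70.5 CPM (48.2 to 99.5), and clusters 4 and 6 held 0. That cluster held only 3 of 11 epithelial markers, and of its 280 cells 139 were called epithelial one by one, 111 had no call and 28 were called granulocytes. Pdgfb had 19 UMIs, spread over clusters 1, 2, 3, 5 and 7, and no epithelial-like cluster with over 50 cells was above 18.4 CPM. Ihh had 7 UMIs, Dhh had 10 and Shh had 4. Of the Shh UMIs, 2 were in cluster 9, a group of 17 cells led by Upk3a, Sprr2f and Krt15, at 108 CPM (13.1 to 389).

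**Figure D5:**
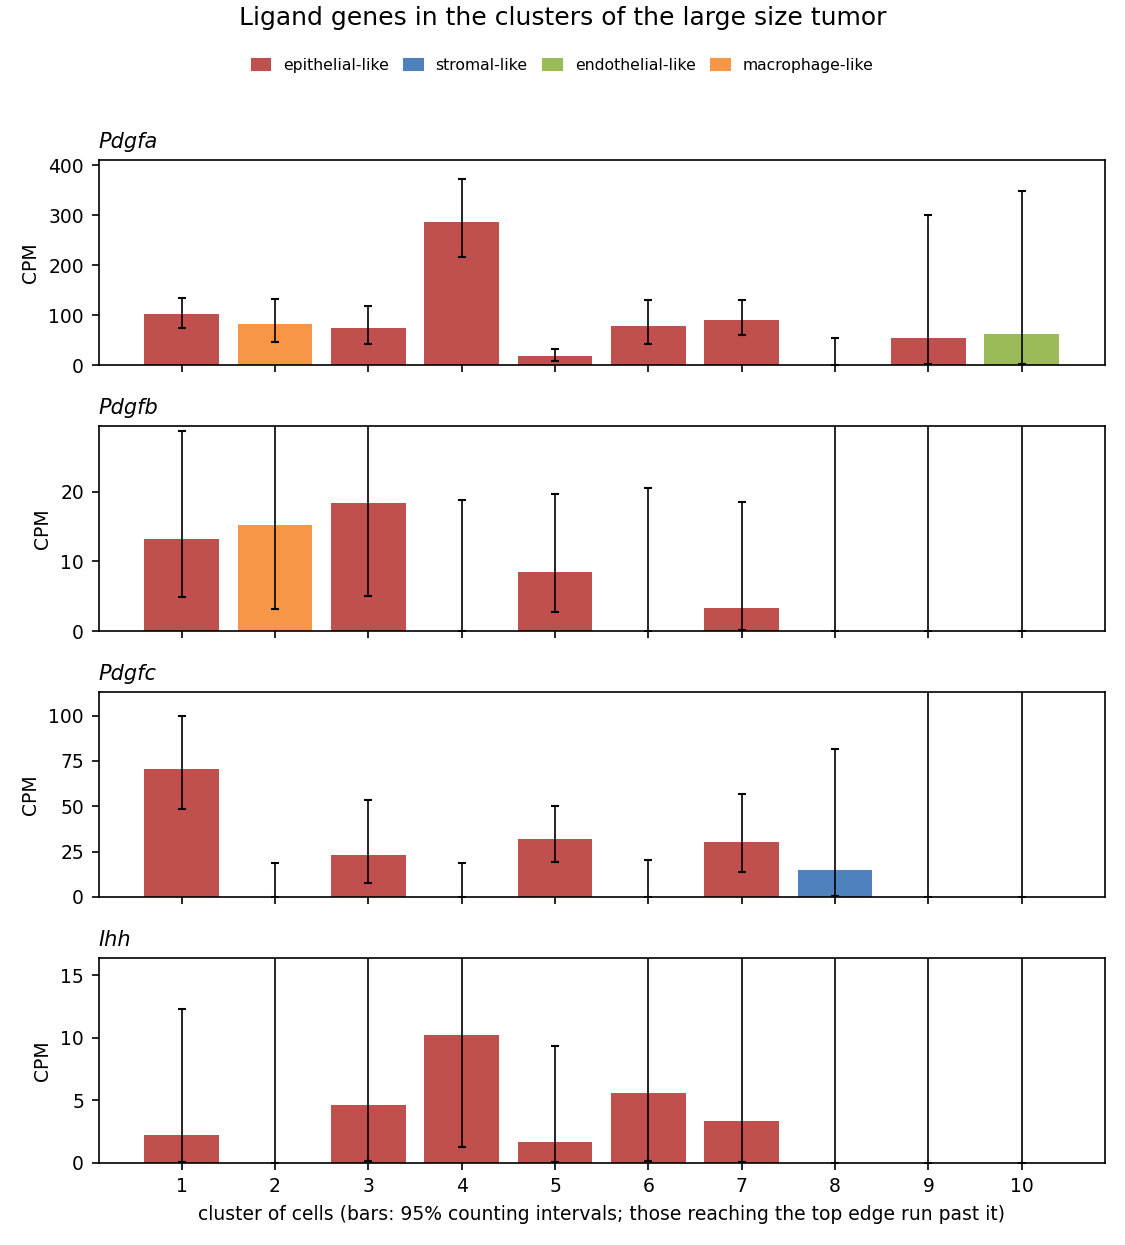
CPM of Pdgfa, Pdgfb, Pdgfc and Ihh (vertical axes) in the 10 clusters of the large size tumor, coloured by class, with 95% counting intervals. Pdgfa stands out in cluster 4 at 287 CPM and Pdgfc in cluster 1 at 70.5 CPM, and Pdgfb is at most 18.4 CPM in the clusters with over 50 cells, while the small clusters 9 and 10 hold too few UMIs to show its level.

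The stroma of the large size tumor held few receptor UMIs. All 4 Pdgfra UMIs were stromal-like, in 3 cells, at 58.7 CPM (16.0 to 150), against 0 in epithelial-like cells, and the exact interval of the ratio had a lower limit of 19.0. Pdgfrb had 1 UMI, in a stromal-like cell, at 14.7 CPM (0.372 to 81.8), and the ratio to the stromal-like cells of the medium size tumor was 0.113 (0.003 to 0.666). No cell of that cluster held more than 1 pericyte marker. Against the 62 stromal-like cells of the medium size tumor with under 6 pericyte markers the ratio was 0.182 (0.0044 to 1.11), an interval that holds 1. Ptch1 had 22 UMIs, of which 18 were epithelial-like, at 9.19 CPM, 1 was stromal-like and 2 were endothelial-like. Pdgfa had 0 UMIs in the 50 stromal-like cells, which allows a level of up to 44.0 CPM. Of the members with at least 20 UMIs only Pdgfa and Ptch1 were left, and Pdgfa was 2-fold lower in stromal-like cells, as were 31.8% of genes, while 11.9% were higher.

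Between the tumors, the epithelial-like level of Pdgfa in the large size tumor was 0.782 times (0.665 to 0.915) that of the medium size tumor, and 0.571 times (0.463 to 0.698) without the clusters with enterocyte or goblet markers. With TMM scaling the first ratio was 0.873 (0.743 to 1.02), an interval that holds 1. Pdgfb stood at 0.378 times (0.214 to 0.621) and Ihh at 0.365 times (0.145 to 0.768). Without the clusters with enterocyte or goblet markers, the large size tumor held Pdgfb at 10.1 CPM (5.78 to 16.4). Ihh was then at 2.53 CPM (0.688 to 6.47). The epithelial-like levels of the medium size tumor were 21.6 CPM and 9.79 CPM, and much of that Pdgfb lay in its cluster 6. Pdgfc stood at 1.37 times (1.04 to 1.78), at 1.28 times (0.973 to 1.66) over all cells and at 1.70 times (1.29 to 2.20) without the clusters with enterocyte or goblet markers. Ptch1 stood at 1.30 times (0.746 to 2.14). Shh, with 4 and 13 UMIs, stood at 2.84 times (0.675 to 9.20), and at 1.43 times (0.157 to 6.33) without the 17 cells of cluster 9. Tumor size, mouse and depth cannot be told apart here. Different clusters make up the class in the 2 tumors, with enterocyte and goblet markers in 369 cells of the large one.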

How the data were processed

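Reads were aligned (mm10) and counted with Cell Ranger by the authors, whose version is not given in the sources used here, and the deposited counts are whole UMIs per gene symbol and barcode without normalization. Genes of the mitochondrial genome have 0 UMIs in both tables. Each tumor was clustered on its own with Seurat 5.3.0 in R 4.3.3 (log normalization to 10000, 2000 variable genes, 10 principal components, resolution 0.8), with the members and 40 listed pathway genes kept out of the variable genes (13 in the medium size and 5 in the large size tumor). Clusters were named from marker lists. A marker counted if seen in 10% of the cells of a cluster at 25% of the highest cluster's level, 3 were needed, and 75% of another list's markers left a cluster unnamed. These thresholds were set after the marker values had been seen. Scrublet (scanpy 1.11.5) called 0 and 9 cells, and none was removed. A gene was called at a fold of 2 with 5 CPM added to both sums and at least 20 UMIs in the tumor, and no test was run on cells. Named genes were the 8 members, Pdgfc, Pdgfd and Dhh, the 12 listed genes with the largest difference among those past 2-fold in stromal-like or mesothelial-like against epithelial-like cells, and the 3 genes most like each member with at least 30 UMIs. The members and lists were chosen with earlier results of these data known. Alternatives used edgeR 4.0.16 (TMM). The ratio step was tested on simulated data. Part of the mice's genotype is not reported here.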

Additional observations from a re-analysis of the deposited data

How the results depend on the processing

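No paired analysis was possible because the 4 technical replicates of each tumor are pooled in 1 table and no test was made. Of 153 values under alternatives, 133 stayed within the counting interval of the reported value, or for counts within 1.5 times, and 20 moved. None of the 94 ratios between fixed classes or tumors crossed 1. Pdgfa in stromal-like or endothelial-like against epithelial-like cells was not among them, and its order turned with cell-by-cell classes. By cluster the levels were 120 and 181 CPM against 112 CPM, and cell by cell they were 67.2 and 87.8 CPM against 113 CPM. The 35 highest-cluster ratios take the highest cluster anew under each setting and so say nothing about direction. The cause was not tested. The highest-cluster ratio of Pdgfa (2.00) was 2.64 at resolution 1.2, in a cluster of 121 cells all within cluster 6, and 1.76 with TMM scaling. That of Ihh (2.97) was 1.68 at resolution 0.4, in a cluster of 524 cells that shared 3 with cluster 1. The highest cluster of Pdgfc at resolution 1.2 shared 0 cells with cluster 8, and that of Shh, with few UMIs, shared 1 with cluster 4 at resolution 0.4 and 0 at 1.2 and with the members among the variable genes. The epithelial-like to other ratio of Pdgfa (1.17) was 1.56 among cells whose own call was that of their cluster. The stromal-like to epithelial-like ratio of Pdgfrb (335) was 95.6 with cell-by-cell classes, and that of Ptch1 (2.55) was 6.69 in thinned cells, from a single random draw. The stromal-like to mesothelial-like ratio of Pdgfra (2.53) was 11.0 with cell-by-cell classes. Pdgfa in the large over the medium size tumor (0.782) was 0.571 without the clusters with enterocyte and goblet markers. At resolution 0.4 and with 20 principal components clusters 10 and 11 merged and gave no stromal-like or mesothelial-like value, and at the 60% naming threshold there was no mesothelial-like value. Listed genes higher in stromal-like cells of the medium size tumor (8) were 5 at a fold of 3, and those lower (2) were 0 at a fold of 3 and 4 with 1 CPM added. In mesothelial-like cells the higher genes (7) were 11 without the filter and 4 at a fold of 3, and the lower (0) were 2 with 1 CPM added. In the large size tumor the higher genes (2) were 9 without the filter and 4 with 1 CPM added, and the lower (1) were 2 without the filter, with 1 CPM added and with TMM scaling. The 60% naming threshold, the cells whose own call was that of their cluster, and the comparisons without gut-marker clusters, without pericyte-marker cells, without cluster 9 of the large size tumor or, among carcinoma clusters, with TMM scaling, thinning or without the highest doublet scores were added after seeing the data. The interval of Pdgfa in epithelial-like over other cells and in the large over the medium size tumor held 1 with TMM scaling, and that of Pdgfc between the tumors held 1 over all cells.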
